A study of Mus musculus with 4 samples.

Results

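Mt1, Mt2 and Trf are 3 metal-binding genes among the 235 named genes that the deposited tables of this study list. They were chosen because rows with these gene names stand in the authors' deposited tables of differing transcripts, so the values below were already part of the choice and are given as a description, with no test. RNA was sequenced from testes of CD1 mouse embryos (wild type, E13.5) after removal of the mesonephros. The 4 groups were IBU+ACE (ibuprofen with acetaminophen), ASP+ACE (aspirin with acetaminophen), ACE+ACE (acetaminophen) and Control (treatment given as none), with 1 library in each. The labels give no dose, no days of exposure and no number of embryos per library, and the Control library carries the name EtOH inside the tables. The question of the study was how these drugs, taken in pregnancy, bear on the forming testis. With 1 library per group no difference has a replicate check, so each comparison is between 2 libraries.

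Metallothioneins, the products of Mt1 and Mt2, are small proteins whose many cysteines bind zinc and copper and also take up toxic metals such as cadmium. Their genes lie side by side and are switched on by metals through the transcription factor Mtf1, and also by glucocorticoids and oxidative stress; fetal liver makes them in large amounts. Trf encodes transferrin, the iron carrier of blood plasma, made chiefly by hepatocytes and also by Sertoli cells, which pass iron to germ cells.

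The coding sequences of Mt2 and Mt1 are shown because they carry the metal-binding residues and because reads of such close relatives could be confused. They were taken from the longest 3-exon transcript of each gene in GENCODE M21 on GRCm38 (plus strand), and capitals mark the in-frame codons TGC and TGT, which encode cysteine.
Mt2: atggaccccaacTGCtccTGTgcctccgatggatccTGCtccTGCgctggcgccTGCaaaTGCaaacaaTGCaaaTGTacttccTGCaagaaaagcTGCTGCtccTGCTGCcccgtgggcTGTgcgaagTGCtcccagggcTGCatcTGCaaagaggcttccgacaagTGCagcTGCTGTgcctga
Mt1: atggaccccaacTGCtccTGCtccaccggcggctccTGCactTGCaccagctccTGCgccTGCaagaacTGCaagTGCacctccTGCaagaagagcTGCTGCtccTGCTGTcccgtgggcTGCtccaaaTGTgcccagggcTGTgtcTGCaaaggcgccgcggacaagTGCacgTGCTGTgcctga
Each has 61 codons before the stop codon, of which 20 encode cysteine (16 TGC and 4 TGT in both genes), and all 20 stand at the same codon positions. Of the 186 bases, 148 (79.6%) were equal and 38 differed. The longest run of bases common to both transcripts was 20, shorter than the 75 nt reads. No stretch of 75 bases from the 3 annotated Mt1 transcripts occurred in an annotated transcript of another gene, on either strand. No exact 75 nt match could therefore belong to both genes, as far as annotated transcripts go.

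Promoter windows of 300 bases, from 250 before to 50 after the annotated start, were available in RefSeq (GRCm38.p6) for 2 of the 3 genes. They are shown because both metallothionein genes were lowest in ACE+ACE among the 3 libraries with a value, a pattern that other genes shared. Neither gene has a value in ASP+ACE. Capitals mark the core of the metal response element, searched as TGCACNC and TGCGCNC on both strands.
Mt2, chr8:94172368-94172667, plus strand: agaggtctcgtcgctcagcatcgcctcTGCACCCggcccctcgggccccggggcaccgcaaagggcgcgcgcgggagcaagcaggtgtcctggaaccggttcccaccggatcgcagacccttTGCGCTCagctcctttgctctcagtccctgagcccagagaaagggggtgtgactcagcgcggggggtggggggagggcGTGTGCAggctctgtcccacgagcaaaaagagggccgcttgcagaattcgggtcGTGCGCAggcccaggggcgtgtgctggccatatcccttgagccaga
Mt1, chr8:94178839-94179138, plus strand: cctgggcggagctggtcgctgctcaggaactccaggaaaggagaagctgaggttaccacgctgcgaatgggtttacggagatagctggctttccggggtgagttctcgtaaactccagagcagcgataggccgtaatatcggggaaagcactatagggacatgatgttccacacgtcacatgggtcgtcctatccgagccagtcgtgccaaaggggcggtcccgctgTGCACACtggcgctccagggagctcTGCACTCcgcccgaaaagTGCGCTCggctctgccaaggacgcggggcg
The Mt2 window held 4 matches, 2 of each form, and the Mt1 window held 3, with 2 of TGCACNC and 1 of TGCGCNC; no matches overlapped. Of all 32851 RefSeq windows of this length, 25.7% held at least 1 match to either form, 12.6% to TGCACNC and 15.4% to TGCGCNC. These shares are not a background for the counts of 4 and 3, since the number of matches per window is not given for all windows. In Mt2 the match nearest upstream of the start lies at bases -50 to -44, and in Mt1 at bases -23 to -17, with the start as base 0. Both deposited loci begin exactly at the start used for these windows, but GENCODE M21 also has transcripts that begin further in, by 122 and 152 bases for Mt1 and by 46 and 242 bases for Mt2. Between the end of the window and the start codon a further 3 matches occurred in Mt2 (180 bases) and 2 in Mt1 (172 bases). A match is a stretch of letters and says nothing of whether a factor was bound.

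The deposited locus of Mt2 is chr8:94172618-94173567 and that of Mt1 is chr8:94179089-94180325, 5521 bases further along the same strand of GRCm38. The Mt2 locus overlaps the annotated antisense gene Gm45774 by 795 bases, and 30.2% of the distinct 75-base stretches of the Mt2 transcripts occurred on the opposite strand of a Gm45774 transcript. Libraries were made with a stranded kit, but no source used here says whether strand entered the quantification, so the Mt2 value may include antisense reads. The deposited locus of Trf, chr9:103188032-103230463 on the minus strand, is longer than the annotated gene (chr9:103204001-103230444) and also spans all of Srprb, a subunit of the signal recognition particle receptor, and Gm20425, a protein-coding gene model that runs across both. Of the distinct 75-base stretches of the 9 annotated Trf transcripts, 55.8% also occurred in Gm20425 on the same strand. The Trf value is therefore that of 1 assembled transcript in a locus of overlapping gene models, and is less certain than that of Mt1.

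**Figure D1:**
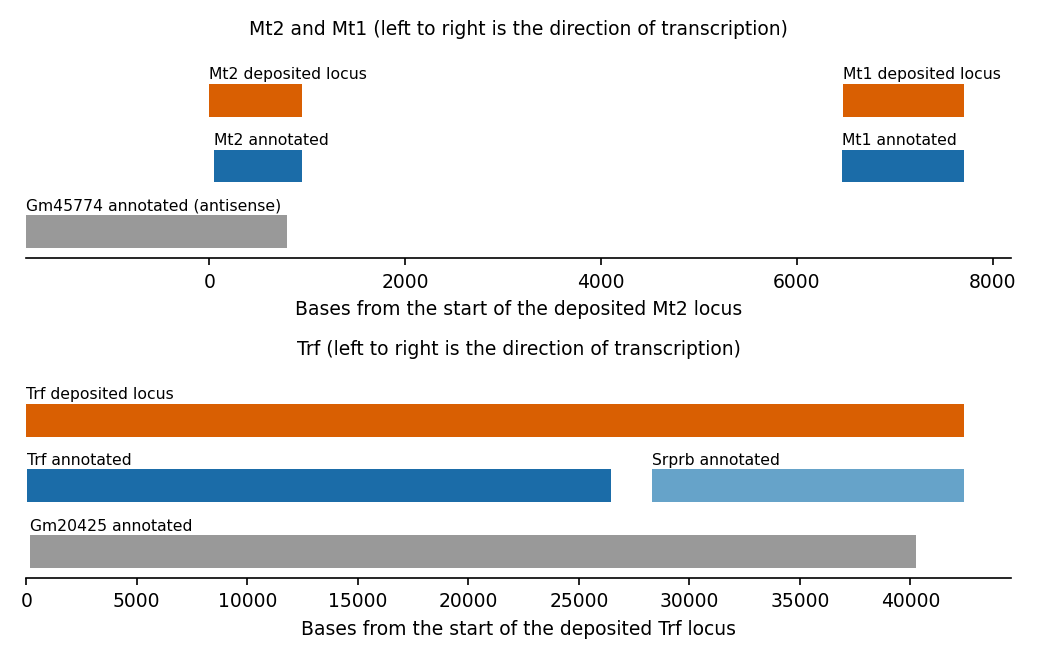
Maps of the deposited and annotated loci of Mt2 and Mt1 (top) and Trf (bottom), drawn to scale as bases from the start of the deposited Mt2 or Trf locus, with transcription running left to right for the named genes. The Mt1 locus coincides with its gene to within 7 bases at the start, Mt2 shares 795 bases with antisense Gm45774, and the Trf locus runs on through Srprb.

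All 3 genes were lower in the ACE+ACE library than in the Control library, and Mt1 and Mt2 were at the Control level in the IBU+ACE library. Levels are those the authors deposited, taken to be FPKM (fragments scaled to transcript length and to the mapped fragments of the library). Setting levels of different genes side by side carries a further limit, because the Mt2 and Trf loci overlap other genes. Mt1 had 30.1 FPKM in IBU+ACE, 13.9 FPKM in ACE+ACE and 29.9 FPKM in Control. Mt2 had 16.6 FPKM in IBU+ACE, 6.42 FPKM in ACE+ACE and 16.3 FPKM in Control. Trf had 6.28 FPKM in ACE+ACE and 29.2 FPKM in Control. For both metallothionein genes the ACE+ACE library was the low one, and the other libraries with a value lay within 2% of each other. No member has a value in ASP+ACE, and Trf has none in IBU+ACE, because the tables are limited to called transcripts. A missing row means that the authors made no call, not that the levels were equal.

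**Figure D2:**
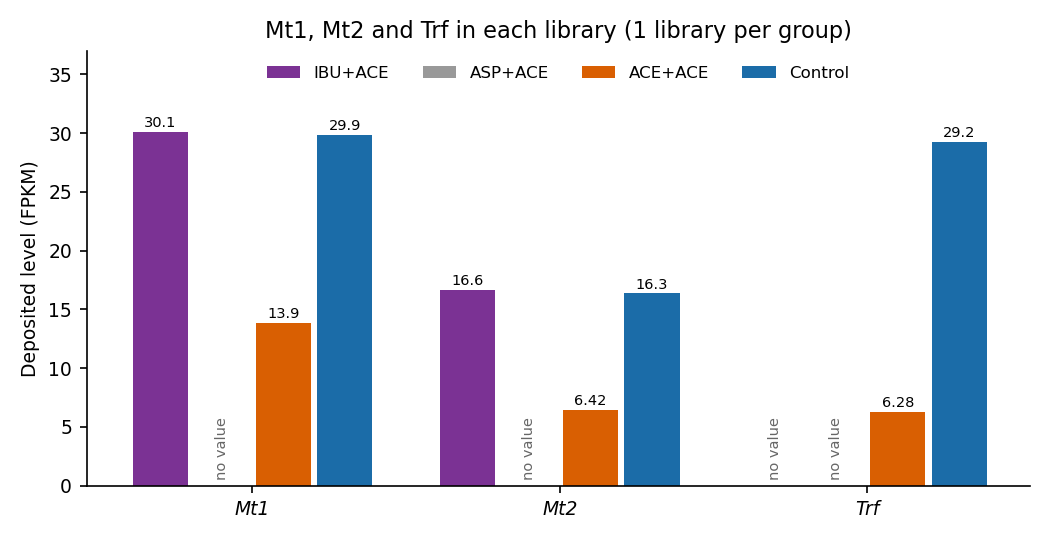
Deposited level in FPKM (vertical axis) of Mt1, Mt2 and Trf in the IBU+ACE, ASP+ACE, ACE+ACE and Control libraries, 1 bar per library and no error bars because each group has 1 library. In ACE+ACE the bars stand at 13.9, 6.42 and 6.28 FPKM, against 29.9, 16.3 and 29.2 FPKM in Control; "no value" marks libraries for which no table lists the gene.

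Between ACE+ACE and Control all 3 members were listed as lower in the authors' deposited table. That table holds 50 lower and 17 higher transcripts, which are 0.0667% and 0.0227% of the 74945 tests per table that the common q-value of 0.0310 implies; because the members were chosen from such rows, nothing is read from their count. The number of tests assumes that all 726 deposited rows were the calls of 1 adjustment. Trf, the iron carrier, was lower by the widest margin, at 21.5% of its Control level (log2 fold change -2.22, a 4.65-fold drop). Mt2 was at 39.3% of its Control level (log2 fold change -1.35) and Mt1 at 46.4% (log2 fold change -1.11). Among the 34 named genes listed as lower, 2 fell by more than Trf, and over all 50 lower transcripts 17 did, of which 6 were listed at 0 in ACE+ACE. Mt2 stood at place 37 and Mt1 at place 44 of those 50. Over all listed lower transcripts with both values above 0 the median log2 fold change was -1.81, so Trf fell by more than the typical listed transcript and both metallothionein genes by less. In a dissected organ, fewer cells of a type and less RNA per cell cannot be told apart.

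The ratios between members, taken from the same levels and so not a separate finding, differed between these libraries. Transferrin and Mt1 transcripts were nearly level in Control, where Trf had 0.979 times the FPKM of Mt1, while in ACE+ACE Trf had 0.453 times the FPKM of Mt1. Mt2 had 55.4% of the FPKM of Mt1 in IBU+ACE, 46.3% in ACE+ACE and 54.8% in Control. Mt1 thus had the higher deposited level of the metallothionein pair in all 3 libraries with a value. No replicate gives the error of these ratios, and the overlap of the Mt2 and Trf loci with other genes limits them further.

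Genes made by the liver were also among the transcripts listed as lower in this comparison. Because the members were chosen from such rows, nothing is read from the shared direction. Of 18 liver markers 11 were listed as lower in ACE+ACE than in Control and 0 as higher. Over all implied tests, 0.0667% were listed as lower and 0.0227% as higher. The median log2 fold change was -1.80 over the listed liver markers, against -1.81 over all listed lower transcripts with both values above 0. Summed over the 10 liver markers that have values in all 3 libraries, the level was 239 FPKM in IBU+ACE, 62.9 FPKM in ACE+ACE and 226 FPKM in Control, so ACE+ACE stood at 27.9% of Control. The log2 fold changes of these 10, ACE+ACE over Control, ran from -1.95 to -1.31. The value of Trf (-2.22) lay below that range, that of Mt2 (-1.35) inside it and that of Mt1 (-1.11) above it. Of 11 erythroid markers, 2 were listed as lower in ACE+ACE: Slc4a1, the anion exchanger of the red cell membrane, with 7.35 FPKM in ACE+ACE and 15.5 FPKM in Control, and the globin gene Hbb-bt, with 293 FPKM in ACE+ACE and 595 FPKM in Control. The globin gene Hbb-y, at a higher level than either, was not listed, with 2350 FPKM in ACE+ACE and 3012 FPKM in Control. No liver or erythroid marker with a value was listed at 0 in any library. The part that liver-type or red cell RNA has in the lower levels of Mt1, Mt2 and Trf was not tested.

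Markers of testis cell types gave few values. Trf stands in the Sertoli list of 14 genes, although hepatocytes also make transferrin. It was the 1 listed member of that list between ACE+ACE and Control, which follows from how the members were chosen. Sox9, which drives Sertoli cell fate, had 10.04 FPKM in IBU+ACE, 5.22 FPKM in ASP+ACE, 5.97 FPKM in ACE+ACE and 5.98 FPKM in Control. It was not listed between ACE+ACE and Control (log2 ratio -0.0021). Cst9, a cystatin of fetal Sertoli cells, has no value in ACE+ACE. Lists of 8 Leydig, 8 germ cell, 8 macrophage and 6 mesonephros and Wolffian duct markers had no member in any of the 6 tables. Between 0.0133% and 0.276% of the implied tests were called per direction and table, so nothing is read from lists of this size without a call. In ACE+ACE, Sox9 was the only Sertoli marker beside Trf with a value, so the lists used here do not establish the label of the tissue.

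**Figure D3:**
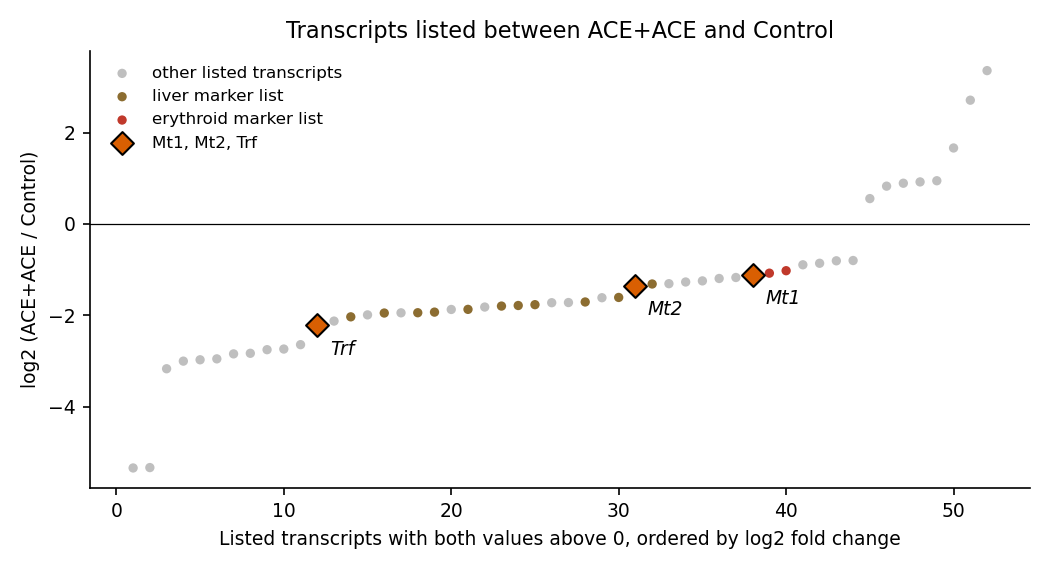
Log2 fold change, ACE+ACE over Control (vertical axis), of the 52 transcripts listed between these libraries with both values above 0, ordered from the lowest to the highest (horizontal axis), 1 point per transcript. Trf at -2.22 sits beyond the liver markers, Mt2 at -1.35 at their upper edge, and Mt1 at -1.11 beside the erythroid markers.

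Between IBU+ACE and ACE+ACE, both metallothionein genes were listed as higher in IBU+ACE. The authors' deposited table holds 207 higher and 25 lower transcripts, 0.276% and 0.0334% of the implied tests, and again the members were chosen from such rows. In IBU+ACE, Mt2 was at 259% of its ACE+ACE level (log2 fold change 1.37) and Mt1 at 217% (log2 fold change 1.12). Both log2 fold changes lay below the median of 1.82 over the higher transcripts with both values above 0. The ACE+ACE library is in this comparison as well as in the preceding one, so the rise and the drop rest on the same ACE+ACE values and are not independent. Trf was not listed here and has no value in IBU+ACE. Of the 18 liver markers 10 were listed as higher in IBU+ACE and 0 as lower, with a median log2 fold change of 2.09, and of the 11 erythroid markers 3 were higher and 1, Hbb-y, was lower. Their part in the higher metallothionein levels was not tested.

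Against Control, neither metallothionein gene was listed in IBU+ACE, where the table holds 151 higher transcripts (0.201% of the implied tests) and 34 lower ones (0.0454%). Mt1 in IBU+ACE was at 101% of its Control level (log2 ratio 0.01) and Mt2 at 102% (log2 ratio 0.03). With 1 library each, these ratios do not show that ibuprofen with acetaminophen leaves the genes unchanged. Some scale comes from other named genes of like level: among the 17 listed in that table whose higher value lay within 2-fold of the Control level of Mt1, the smallest difference called was that of Podxl, a sialomucin gene (log2 fold change -0.58). Liver markers with values in all 3 libraries summed to 106% of Control in IBU+ACE, with log2 ratios from -0.21 to 0.80. Of the 18 liver markers 0 were listed between IBU+ACE and Control. Of the 11 erythroid markers 3 were listed as lower in IBU+ACE and 0 as higher, with a median log2 fold change of -0.76. These 3 were the embryonic globin genes Hba-x, Hbb-bh1 and Hbb-y. Slc4a1, the red cell gene nearest to Mt1 in pattern, was not listed, with 14.3 FPKM in IBU+ACE and 15.5 FPKM in Control. The part of either marker group in the metallothionein levels was not tested.

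No member was listed in any comparison with the ASP+ACE library. Against Control the authors' deposited table holds 15 higher (0.02%) and 29 lower transcripts (0.0387%), against ACE+ACE 14 higher (0.0187%) and 10 lower (0.0133%), and between IBU+ACE and ASP+ACE 160 higher (0.213%) and 14 lower (0.0187%). Other genes that were low in ACE+ACE do have ASP+ACE values. Of the liver markers, 2 were listed as lower in ASP+ACE than in Control and 7 as higher in ASP+ACE than in ACE+ACE. Of the 11 erythroid markers, 3 (Hbb-bt, Hbb-y and Slc4a1) were listed as lower in ASP+ACE than in Control, with a median log2 fold change of -0.79, and 0 were listed between ASP+ACE and ACE+ACE. For ASP+ACE over Control, only 3 named genes were listed whose higher value lay within 2-fold of the Control level of Mt1. The smallest difference among these 3 was that of Slc4a1, with 8.15 FPKM in ASP+ACE and 15.5 FPKM in Control (log2 fold change -0.93). Levels of Mt1, Mt2 and Trf in ASP+ACE cannot be bounded from this, since the depth and the spread behind each call are unknown.

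Other genes of metal handling are given here by their counts. Calls made up between 0.0133% and 0.276% of the implied tests per direction and table, so lists of this size without a further call are near the background and nothing is read from them. Of 30 genes for zinc and copper transport and metallothioneins, 2 were listed as lower in ACE+ACE than in Control and 2 as higher in IBU+ACE than in ACE+ACE, Mt1 and Mt2 each time. This list includes the other metallothionein genes Mt3 and Mt4, the metal-sensing factor gene Mtf1 and the zinc exporter gene Slc30a1, none of which was listed in any table. Of 32 genes for iron transport, iron storage and heme, 1 was listed, Trf in ACE+ACE over Control. The transferrin receptor genes Tfrc and Tfr2, the ferritin genes Fth1 and Ftl1, the iron exporter gene Slc40a1 and the hepcidin gene Hamp were in no table. Of 16 genes of the glucocorticoid, oxidative and heat stress responses, among them Fkbp5, Nqo1 and Hspa1a, 0 were listed in any of the 6 tables. All symbols of these lists are in the GENCODE M21 annotation, and for an unlisted gene it is not known whether a test was made.

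The pattern of each member was set beside that of the other named genes by centring log2 levels on their mean over the libraries in which the member has a value, and taking the highest absolute difference from the member. For Mt1, over 3 libraries and 115 other named transcripts, the nearest was Slc4a1, with 14.3 FPKM in IBU+ACE, 7.35 FPKM in ACE+ACE and 15.5 FPKM in Control and a highest difference of 0.0933 on the log2 scale. Next came Myh3, the embryonic myosin heavy chain gene (0.113), Mt2 (0.166), the processed pseudogene Gm6166 (0.215) and Hemgn, a nuclear protein gene of red cell precursors (0.289). For Mt2 the nearest was Myh3, with 4.54 FPKM in IBU+ACE, 1.85 FPKM in ACE+ACE and 4.46 FPKM in Control and a difference of 0.0530, followed by Gm6166 (0.124), Mt1 (0.166), Hemgn (0.198) and Slc4a1 (0.228). The same 4 other genes thus stood beside both metallothionein genes, Slc4a1 in the erythroid list and none in the liver list, and neither metallothionein gene was the nearest to the other. With 1 FPKM added to each value, 4 of the 5 genes named for Mt1 and 2 of the 5 named for Mt2 remained among the nearest. These libraries are shared by all genes compared, so the differences are a description. Only named transcripts with a value in all 3 libraries could be compared, so genes without calls are not covered. Nothing is therefore read from these neighbours about the source of the metallothionein transcripts.

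**Figure D4:**
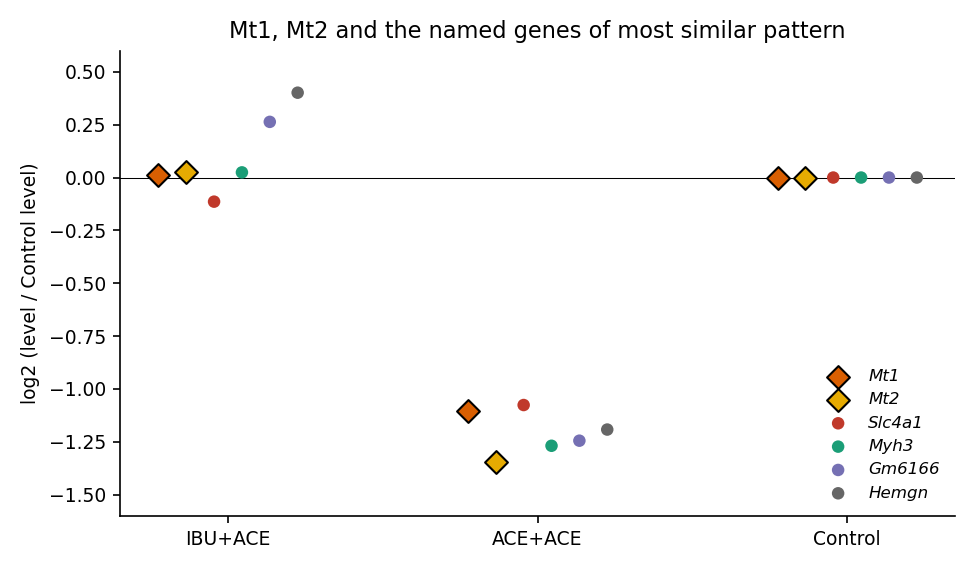
Log2 of the level over the Control level (vertical axis) in the IBU+ACE, ACE+ACE and Control libraries for Mt1 and Mt2 (diamonds) and the 4 other named genes nearest to them in pattern (circles), 1 library per position. All 6 genes lie between -1.35 and -1.08 in ACE+ACE, while in IBU+ACE Slc4a1 lies a little below the Control level and Gm6166 and Hemgn above it.

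For Trf the measure rests on 2 libraries and 126 other named transcripts, and so is no more than the nearness of the ACE+ACE over Control ratio. The nearest were Spp2, a secreted phosphoprotein gene, with 0.5002 FPKM in ACE+ACE and 2.18 FPKM in Control, Itih2, a heavy chain gene of the inter-alpha-trypsin inhibitors, with 1.03 FPKM in ACE+ACE and 4.22 FPKM in Control, and the apolipoprotein gene Apoa4, with 0.438 FPKM in ACE+ACE and 1.74 FPKM in Control. Ambp, which encodes the light chain of the same inhibitors, and the apolipoprotein gene Apom followed, at log2 fold changes of -1.95 and -1.94. All 5 encode proteins that the liver secretes, at levels in Control of 1.74 to 5.91 FPKM, against 29.2 FPKM for Trf. Liver genes were frequent in this comparison: of the 34 named genes listed as lower, 11 stand in the liver list. Nothing is therefore read from these neighbours about the source of Trf. Of these 5, Ambp was listed as higher in IBU+ACE than in ACE+ACE (6.70 FPKM in IBU+ACE and 1.53 FPKM in ACE+ACE), whereas Spp2, Itih2, Apoa4 and Apom, like Trf, were not. Unlike Trf, Apoa4 does have a value in IBU+ACE: 0.661 FPKM, against 0.438 FPKM in ACE+ACE and 1.74 FPKM in Control. With 1 FPKM added to each value before the log2, 1 of these 5 genes remained among the nearest to Trf.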

How the data were processed

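RNA of 4 E13.5 mouse testis libraries was sequenced as paired 75 nt reads from stranded, ribosomal RNA depleted libraries, per the labels' protocols. Per the submitters' processing notes, which give no settings, GRCm38 was used with TopHat2 2.1, Bowtie2 2.2.6 and Cufflinks 2.2.1, and bcl2fastq 2.17, FastQC and SAMtools 1.3 are named as well. The authors deposited 6 tables, 1 per pair of libraries, with values of both libraries (taken as FPKM from the layout, as the headers name no unit), p-values, q-values and log2 fold changes. All 726 rows were marked significant, with the same p-value of 5e-05 and q-value of 0.0310, so these tables hold called transcripts and cannot rank them. Read counts were not used here, so depth is unknown and no interval or floor is given.

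The software was pandas 2.3.3, numpy 2.4.6 and matplotlib 3.10.9 under Python 3.11.15. Decimal commas became points, and 1 was added to each start. The code for reading, counting and likeness was tested on simulated data, where all 200 rows (120 higher, 80 lower) were recovered. The deposited log2 fold changes equalled those recomputed within 1.09e-05, and 0 values disagreed between tables. No test was run, since each group has 1 library. The members, the gene lists, the marker lists and the rule for naming genes (the listed members of the lists and the 5 named genes nearest in pattern) were chosen with earlier results of these data known, and Podxl was named after its value was seen. A member of the erythroid list is not reported here and was left out of its counts. Some unlisted genes are named where their list is described. The motif search between the promoter window and the start codon was added later. Alternatives were adding 1 or 0.1 FPKM, a change of at least 1 on the log2 scale in either direction, a higher value of at least 1 FPKM, and q-values up to 0.01. Sequences come from GENCODE M21 and RefSeq (GRCm38.p6).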

Additional observations from a re-analysis of the deposited data

How the results depend on the processing

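With 1 or 0.1 FPKM added to both values, all 7 log2 fold changes of Mt1, Mt2 and Trf kept their direction and their side of a 2-fold change; the smallest of the 5 listed ones in size was -1.05, for Mt1 in ACE+ACE over Control with 1 FPKM added. At a q of 0.01 or less 0 of the listed transcripts were left in each of the 6 tables, because all rows share 1 q-value. Asking for a higher value of at least 1 FPKM left 154 of the 232 transcripts between IBU+ACE and ACE+ACE, and kept Mt1 and Mt2; the other 5 tables stayed within 1.5 times of their counts, as did all 6 when a change of 1 or more on the log2 scale was asked for. With 1 FPKM added, 4 of the 5 genes nearest in pattern to Mt1 remained, 2 of the 5 for Mt2 and 1 of the 5 for Trf, so the neighbours of Mt2 and Trf depend on the treatment of low values. No paired analysis was possible because each group has 1 library. The depth behind each value is unknown, no replicate gives a spread, and the Trf locus spans other genes.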
